A study of Mus musculus with 40 samples.

Results

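Crystallins are the proteins that fill the fibre cells of the eye lens, and 9 of their genes were followed here in mouse retina: the alpha crystallins Cryaa and Cryab, the acidic beta crystallins Cryba1, Cryba2 and Cryba4, the basic beta crystallins Crybb1, Crybb2 and Crybb3, and the gamma crystallin Crygs. They were chosen by symbol from the 42037 gene symbols of the expression tables and all 9 were among the 23495 genes with enough counts to test. Each of the 40 libraries came from 1 whole retina of a C57BL/6J mouse, in 10 groups of 4. The groups were controls without the disease (nOIR) and 4 groups with oxygen-induced retinopathy (OIR), each at postnatal day 17 (P17) and 19 (P19). OIR pups were kept in 75% oxygen from P7 to P12 and then in room air, which leaves the retina short of vessels and drives new vessel growth. At P14 the OIR eyes received 1 µl into the vitreous, holding IgG at 0.4 µg/µl, an antibody to VEGFA (Vab, clone B20.4.1.) at 0.2 µg/µl, an antibody to ANG-2 (A2ab, clone LC10) at 0.2 µg/µl, or an antibody that binds both (VA2ab) at 0.4 µg/µl. Whether the eyes of controls were injected, and which retinas shared a mouse or a litter, is not stated in the labels, so p-values measure the spread between these retinas. All 3 antibody groups of an age were compared with the same 4 IgG retinas.

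Alpha crystallins are small heat shock proteins that hold unfolding proteins in solution. Cryaa is made mainly in lens, while Cryab is made in many tissues, heart, muscle and glia among them, and rises under stress in several of these. Beta and gamma crystallins are related to one another, pack tightly in fibre cells and give the lens its refractive power. Crystallin transcripts have also been detected in retina, where Cryab is known from glia and neurons.

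The genes lie on 6 chromosomes of the GRCm38 build. Cryaa is at chr17:31677807-31681733 on the plus strand and Cryab at chr9:50751325-50756636 on the plus strand. Cryab overlaps the small heat shock gene Hspb2 on the opposite strand over 1030 bases, and no source used here states a stranded count, so reads in that overlap cannot be told apart. Cryba1 is at chr11:77718615-77725283, Cryba2 at chr1:74889934-74893143 and Crygs at chr16:22805203-22811577, all 3 on the minus strand. Chromosome 5 holds the other 4. Cryba4 (chr5:112246493-112252518, minus) and Crybb1 (chr5:112255815-112269585, plus) point away from each other with 3296 bases between them. Crybb2 (chr5:113058258-113070117, minus) and Crybb3 (chr5:113075839-113081584, minus) follow each other on the same strand with 5721 bases between them.

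Promoter sequence is shown for the 5 genes that hold the letters TGCTGA within 110 bases of the start, so that its place can be compared. These are the 110 bases before the RefSeq start site, written 5′ to 3′ on the strand of the gene (RefSeq, GRCm38.p6): Cryaa at chr17:31677821-31677930, Cryba1 at chr11:77725294-77725403, Cryba4 at chr5:112252519-112252628, Crybb1 at chr5:112255710-112255819 and Crybb3 at chr5:113081585-113081694. Capitals mark TGCTGA on either strand, letters found at the core of the sites that Maf proteins of the lens bind, and TATAA.
Cryaa: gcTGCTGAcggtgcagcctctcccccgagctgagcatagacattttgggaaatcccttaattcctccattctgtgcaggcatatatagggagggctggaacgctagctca
Cryba1: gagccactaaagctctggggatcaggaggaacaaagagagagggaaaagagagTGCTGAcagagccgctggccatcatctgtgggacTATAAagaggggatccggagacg
Cryba4: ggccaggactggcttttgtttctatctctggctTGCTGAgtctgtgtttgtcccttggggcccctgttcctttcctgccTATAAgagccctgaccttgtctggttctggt
Crybb1: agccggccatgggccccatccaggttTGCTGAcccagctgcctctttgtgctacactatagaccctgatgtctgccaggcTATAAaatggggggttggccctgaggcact
Crybb3: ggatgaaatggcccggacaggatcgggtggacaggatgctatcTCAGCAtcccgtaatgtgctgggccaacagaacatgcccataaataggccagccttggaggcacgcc
The TGCTGA run began 108 bases before the start in Cryaa, 84 in Crybb1, 77 in Cryba4 and 57 in Cryba1, and in Crybb3 it lay on the other strand at 67 bases. In Cryba2 and Crygs, not shown, it lay further out on the other strand, at 149 and 200 bases, and Crybb2 had none within 250 bases. A promoter was at hand for 8 of the 9 genes, Cryab being the exception. Within 250 bases before the start and on both strands, TGCTGA was present in 7 of these 8, against 16.1% of 32851 mouse promoters of that length. TATAA was present in 5 of 8, against 22.8% of promoters. The letters GAANNTTC, part of the site that heat shock factors bind, were in 0 of 8, against 6.69% of promoters. These 3 sets of letters do not overlap one another, and a match is a description of the window, not a binding site.

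Libraries held between 9155091 and 25835055 expected counts. Levels between genes are given in TPM (a level per transcript length and library size), and comparisons between groups in CPM (counts scaled to library size with TMM factors). In 37 of the 40 libraries the 9 genes took 0.00573% to 0.068% of all counts. In the other 3 libraries they took far more. The share was 0.344% in retina 4 of the IgG group at P17, 0.587% in retina 4 of the anti-VEGFA group at P17 and 0.547% in retina 2 of the anti-ANG-2 group at P17. These 3 libraries, each with Cryaa above 1000 TPM, held the 3 highest values of every one of the 9 genes. They fall in 3 different OIR groups at P17, and results that rest on them are given with and without them.

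**Figure D1:**
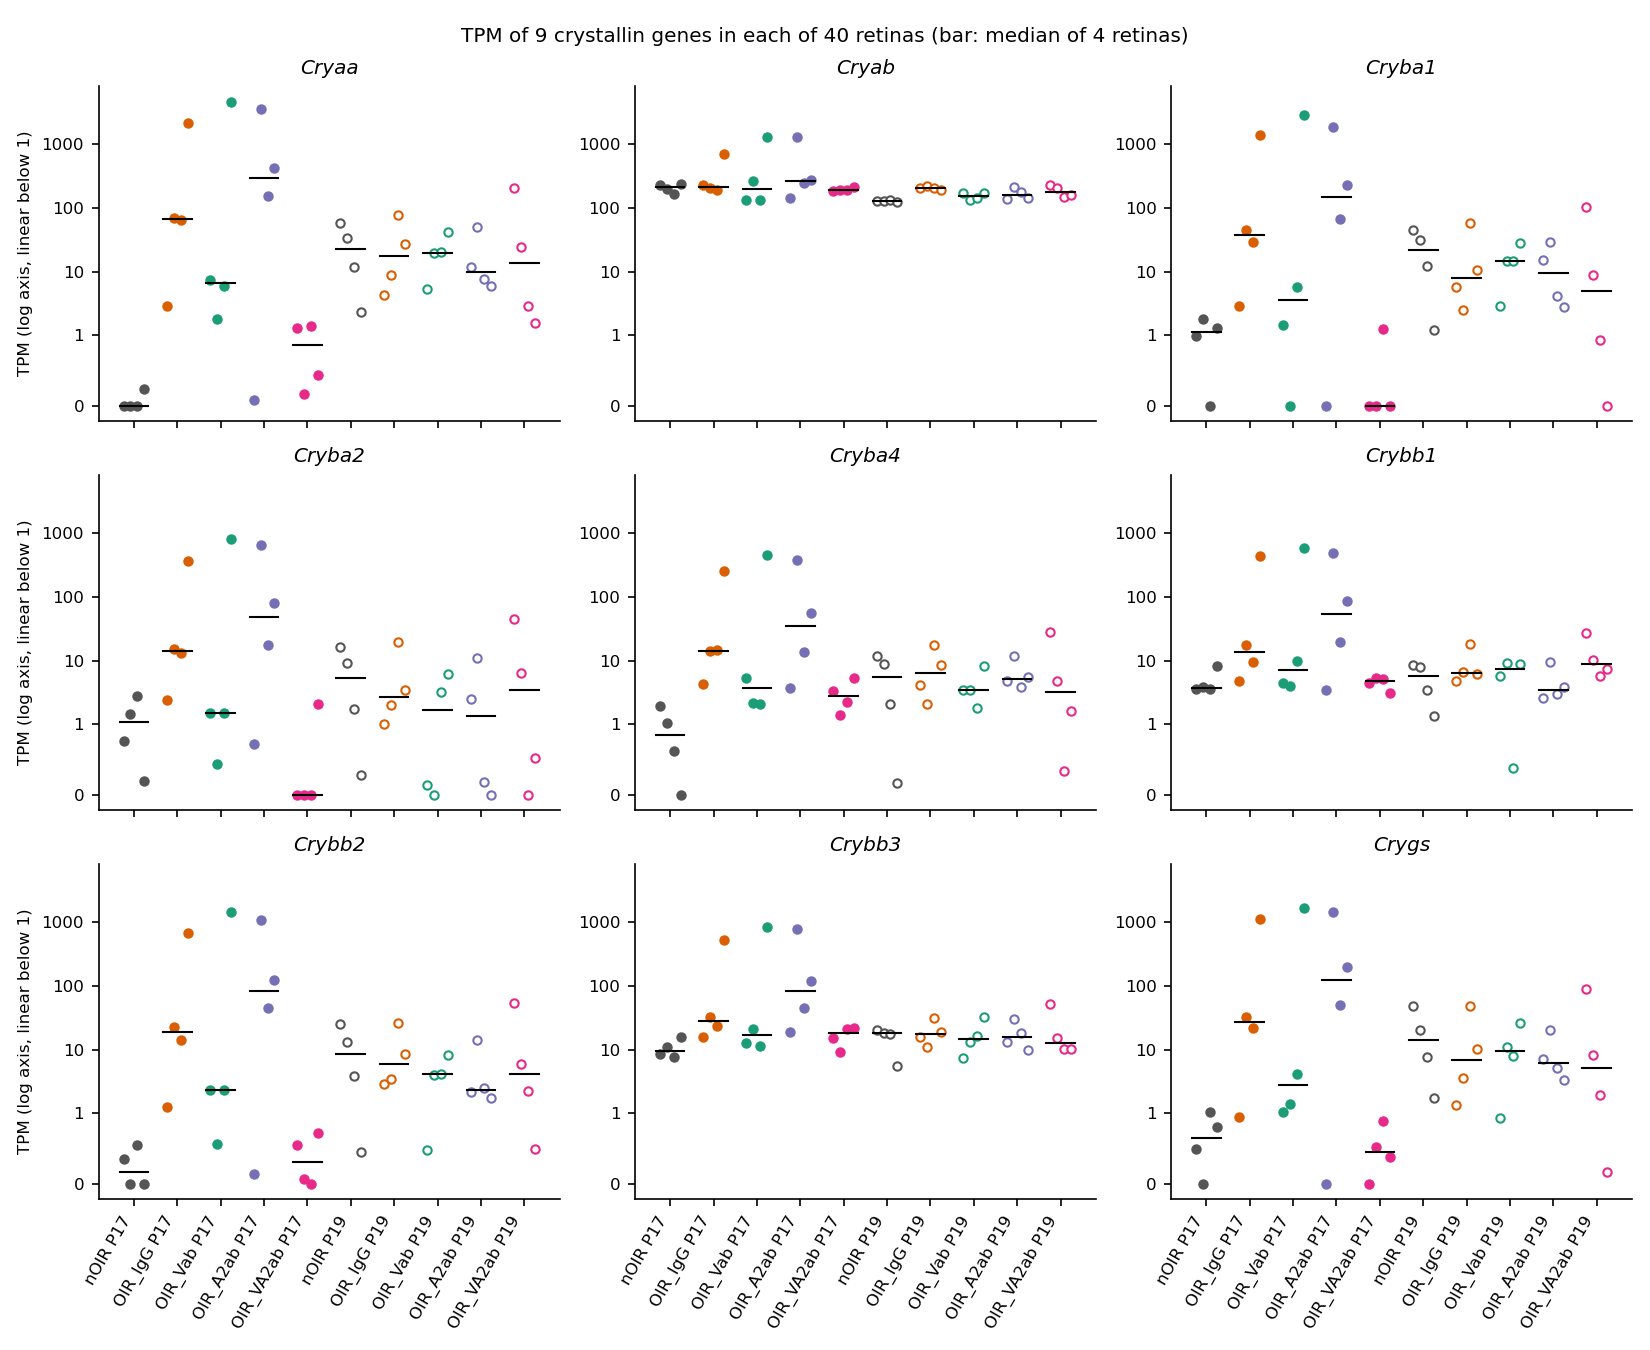
TPM of each of the 9 crystallin genes in every library, 1 panel per gene, on an axis that is linear near 0 and logarithmic above; the 10 groups lie along the horizontal axis, filled points are P17, open points are P19, and bars are the medians of 4 retinas. The same 3 P17 libraries are the highest in every panel, and Cryab alone stays above 120 TPM in all 40.

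Cryaa, the lens chaperone, covered the widest range. At P17 the 4 control retinas were at 0, 0, 0 and 0.25 TPM, or 2 counts in all. The IgG retinas were at 2.88, 69.1, 64.8 and 2083 TPM, and the bispecific retinas at 1.29, 0.17, 1.41 and 0.44 TPM. Every IgG retina was thus above every control and every bispecific retina. Anti-VEGFA retinas were at 7.33, 1.83, 6.00 and 4515 TPM, and anti-ANG-2 retinas at 0.09, 3447, 151 and 422 TPM. In each of these groups the highest retina was far from the lowest, and in the anti-VEGFA group 3 of the 4 lay under 10 TPM.

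At P19 no retina exceeded 205 TPM of Cryaa. Control retinas were at 57.3, 33.2, 11.8 and 2.35 TPM, IgG retinas at 4.30, 8.83, 77.3 and 26.5 TPM, and anti-VEGFA retinas at 5.41, 19.2, 20.2 and 42.0 TPM. Anti-ANG-2 retinas were at 11.9, 50.04, 7.74 and 5.94 TPM and bispecific retinas at 205, 24.1, 2.92 and 1.59 TPM. All 5 groups overlapped at this age. Ordered by the median of 4, the 10 groups ran from 286 TPM (anti-ANG-2, P17) and 67.0 TPM (IgG, P17) down to 0.865 TPM (bispecific, P17) and 0 (controls, P17). Neighbours in that order overlapped, except that the lowest anti-VEGFA retina at P17 (1.83 TPM) lay just above the highest bispecific retina at P17 (1.41 TPM).

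Cryab, the widely made chaperone, was the most abundant of the 9 by median, at 188 TPM over the 40 libraries. Outside the 3 high libraries it ran only from 121 to 275 TPM. Control retinas were at 228, 194, 161 and 233 TPM at P17 and at 125, 125, 134 and 121 TPM at P19. IgG retinas were at 226, 200, 191 and 691 TPM at P17 and at 200, 218, 200 and 189 TPM at P19. At P17 the groups overlapped, and at P19 every IgG retina was above every control. Anti-VEGFA retinas were at 130, 257, 133 and 1278 TPM at P17 and at 171, 133, 140 and 167 TPM at P19. Anti-ANG-2 retinas were at 139, 1256, 240 and 275 TPM at P17 and at 135, 208, 175 and 143 TPM at P19. Bispecific retinas were at 185, 186, 188 and 214 TPM at P17 and at 227, 200, 149 and 158 TPM at P19. The highest anti-VEGFA retina at P19 (171 TPM) was below the lowest IgG retina of that age (189 TPM), though these groups overlapped in CPM, and the other antibody groups overlapped their IgG group. Neighbours in the order of group medians overlapped throughout.

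Crybb3, a basic beta crystallin, was the only other member with more than 3 counts in all 40 libraries. It ran from 5.57 to 837 TPM, and up to 118 TPM outside the 3 high libraries. At P17 the controls were at 8.44, 10.8, 7.61 and 15.7 TPM and the IgG retinas at 15.95, 32.2, 23.6 and 523 TPM. Every IgG retina lay above every control, the lowest only just. At P19 the controls were at 20.2, 18.2, 17.5 and 5.57 TPM and the IgG retinas at 15.7, 11.1, 31.2 and 18.9 TPM, and they overlapped. Its neighbour Crybb2 fell to 0 counts in 3 libraries and had a median of 2.7 TPM. At P17 Crybb2 was at 0.36, 0, 0.55 and 0 TPM in controls and at 1.26, 22.7, 14.3 and 668 TPM with IgG, with no overlap. Crybb1 ran from 0.39 to 580 TPM. It stood at 3.63, 3.87, 3.61 and 8.32 TPM in P17 controls and at 4.82, 17.7, 9.57 and 435 TPM with IgG, and these groups overlapped.

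Among the acidic beta crystallins, Cryba1 reached 2800 TPM and had no counts in 7 libraries. At P17 it was at 0.99, 1.81, 0 and 1.29 TPM in controls, at 2.90, 44.8, 29.3 and 1361 TPM with IgG, and at 0, 0, 1.28 and 0 TPM with the bispecific antibody. The IgG retinas lay above both other groups. Cryba4 ran from 0 to 456 TPM, with 1.95, 1.07, 0.62 and 0 TPM in P17 controls and 4.34, 13.9, 14.8 and 252 TPM with IgG, again without overlap. Cryba2 ran from 0 to 792 TPM and had 3 or fewer counts in 12 libraries. Its P17 values were 0.76, 1.46, 2.75 and 0.21 TPM in controls and 2.45, 15.4, 12.96 and 363 TPM with IgG, which overlapped in TPM and not in CPM.

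Crygs, the gamma crystallin of the mature lens, ran from 0 to 1646 TPM. In P17 controls it was at 0.50, 0, 1.06 and 0.81 TPM, with IgG at 0.95, 32.1, 21.8 and 1096 TPM, and with the bispecific antibody at 0, 0.53, 0.90 and 0.39 TPM. The lowest IgG retina lay below the highest control in TPM, while in CPM the groups did not overlap. At P19 it was at 48.6, 20.2, 7.76 and 1.72 TPM in controls and at 1.37, 3.60, 48.6 and 10.3 TPM with IgG, and these groups overlapped.

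The proportions of the 9 genes differed with the level of Cryaa. In each of the 3 high libraries the order by TPM began with Cryaa, Cryba1 and Crygs. In the 6 libraries with 3 or fewer counts of Cryaa, the 4 P17 controls among them, Cryab was at 139 to 233 TPM, Crybb3 at 7.61 to 18.7 TPM, Crybb1 at 3.49 to 8.32 TPM and Cryba4 at 0 to 3.76 TPM. The other 4 were lower there, with Cryba1 at no more than 1.81 TPM, Cryba2 at 2.75, Crygs at 1.06 and Crybb2 at 0.55 TPM. Cryab alone made up between 8.48% and 93.3% of the counts of the 9 genes in a library, with a median of 77.7%.

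Ratios to Cryaa show the same division, among libraries with at least 30 counts of both genes. The TPM of Cryba1 over that of Cryaa had a median of 0.650 and ran from 0.367 to 1.32 over 20 libraries. Crygs stood at 0.459 (0.328 to 0.848, 19 libraries), Crybb2 at 0.314 (0.198 to 0.440, 17 libraries) and Cryba2 at 0.208 (0.117 to 0.281, 14 libraries). These 4 ratios stayed within 3.59-fold. By contrast the ratio of Cryab ran from 0.283 to 78.4 over 27 libraries, and that of Crybb3 from 0.185 to 5.54 over 27. Crybb1 and Cryba4 lay between, at 0.128 to 1.67 over 23 libraries and 0.091 to 1.51 over 20. The count minimum leaves out libraries where the second gene is low, which can narrow the 4 tight ratios. The ratio of a gene with a steady level falls by construction as Cryaa rises.

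**Figure D2:**
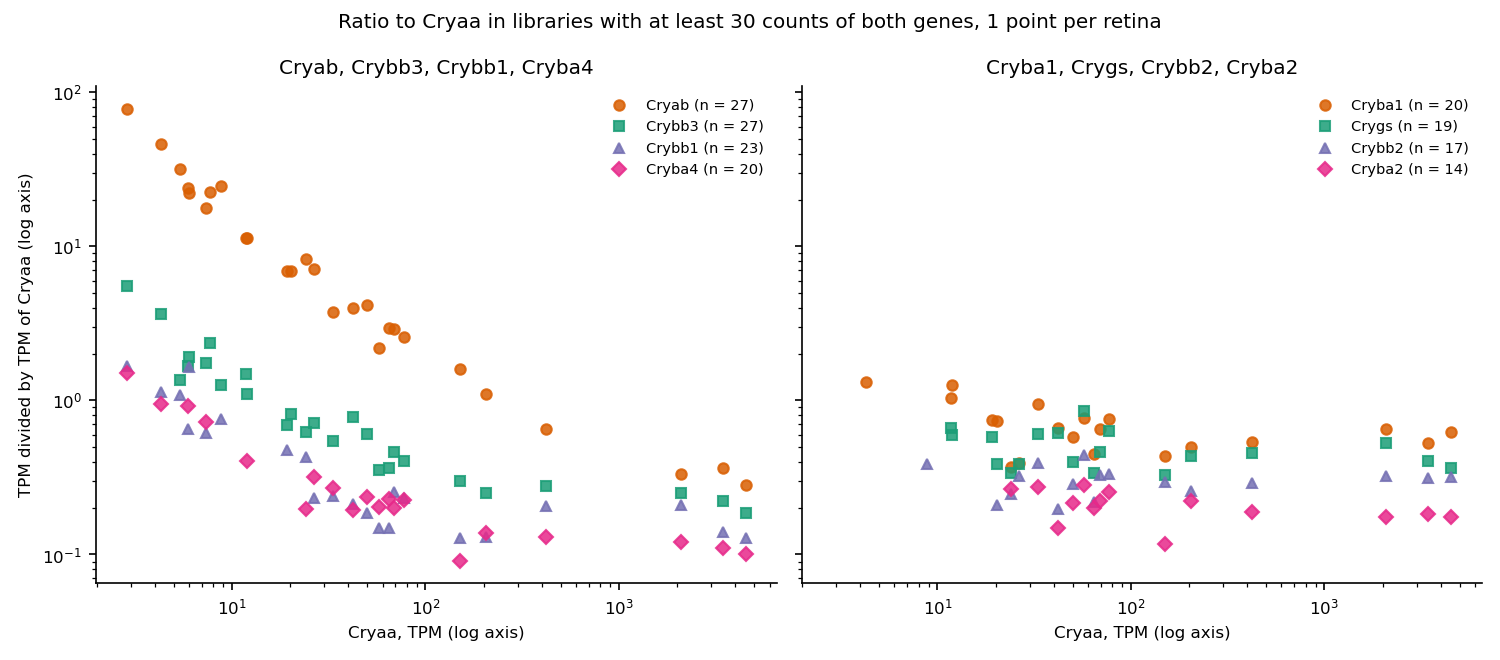
Ratio of each gene's TPM to that of Cryaa (vertical, log axis) against the TPM of Cryaa (horizontal, log axis), 1 point per library with at least 30 counts of both genes; Cryab, Crybb3, Crybb1 and Cryba4 are on the left, and Cryba1, Crygs, Crybb2 and Cryba2 on the right. The left-hand ratios fall as Cryaa rises, from 78.4 to 0.283 for Cryab, while the right-hand ratios stay within 3.59-fold. A gene with a steady level falls in this plot by construction, since Cryaa is the divisor.

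Genes of lens fibre cells outside the crystallins were high in the same 3 libraries. Of a list of 12, 7 were higher in each of the 3 high libraries than in any of the other 37: Mip (the water channel of lens fibres), Lim2 (a fibre membrane protein), Bfsp1 and Bfsp2 (the beaded filament), Gja3 (a lens connexin), Lenep and Grifin. Lim2 was at 10.6, 12.9 and 14.97 CPM in the 3 libraries and at no more than 3.91 CPM elsewhere. Bfsp2 was at 27.1, 27.2 and 27.1 CPM against 0.559 to 7.49 CPM. Summed over the list without Tdrd7, which stood at 203 to 426 CPM in every library, the fibre genes reached 72.3 to 115 CPM in the 3 libraries and 6.00 to 23.3 CPM in the others. Mip was at 0 in 24 of the 40 libraries and Lim2 at 0 in 15.

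Other tissues beside the retina gave no such separation. None of 9 pigment epithelium genes, 3 of ciliary body and iris, 6 of cornea, 7 of Müller glia and 8 of retinal neurons was above all other libraries in the 3. The pigment epithelium sum was 866 to 1577 CPM in the 3 libraries and 239 to 2819 CPM in the rest. The corneal sum was 1.40 to 4.39 CPM against 0.062 to 3.82 CPM. Retinal neuron genes summed to 15885 to 19580 CPM against 14694.5 to 36310.5 CPM, so the markers of retina were high in all 40 libraries. The part of lens RNA in the crystallin levels was not tested.

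**Figure D3:**
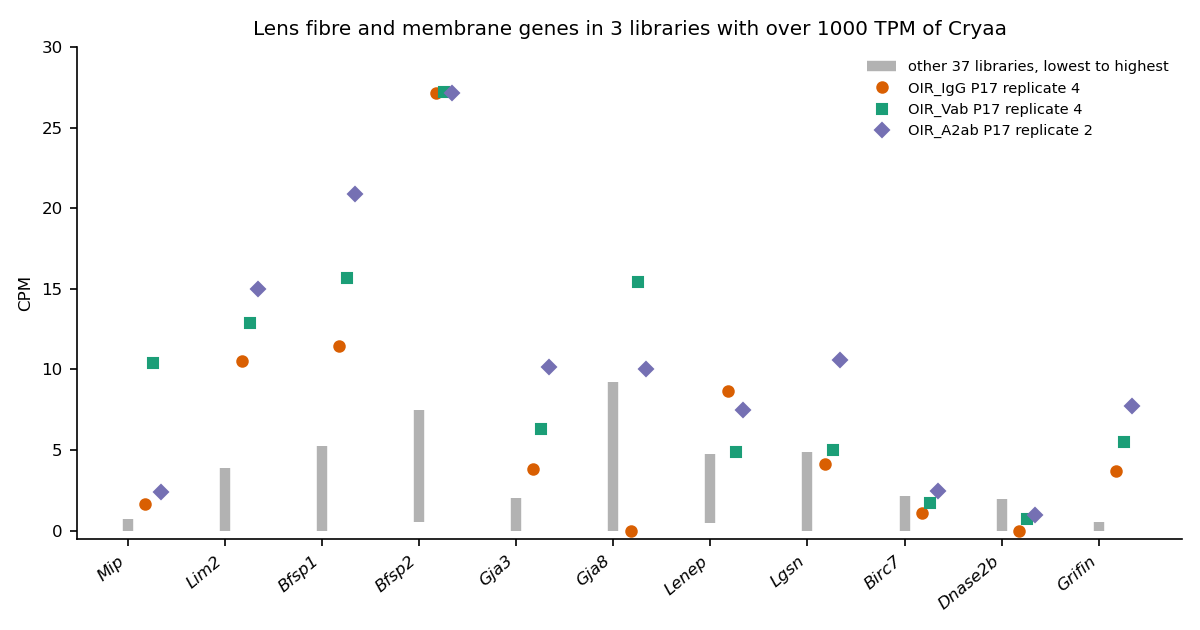
CPM of 11 lens fibre genes in the 3 libraries with Cryaa above 1000 TPM (symbols, 1 per library) and the range of the other 37 libraries (grey bars). For 7 of the genes all 3 symbols lie beyond the grey bar, as for Lim2 at 10.6 to 14.97 CPM against at most 3.91 CPM.

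At P17, OIR retinas given IgG were compared with controls. The labels give an injection for the IgG eyes and do not state one for controls. Unless controls were injected too, the oxygen-induced disease and the injection cannot be told apart here or at P19. Cryaa rose, from 2 counts over 4 control retinas to 24794 over 4 IgG retinas, all 4 of which lay above all controls. Scaled to library size the ratio of the sums was 9704, with an exact 95% interval of 2686 to 80131 that covers counting error only. Without the highest IgG retina the other 3 gave a ratio of 1064 (294 to 8795). By edgeR's quasi-likelihood test with Benjamini-Hochberg adjustment, Cryaa passed at adjusted p = 0.0383 and was the only member called, 1 of 9, where 2.11% of all genes tested were called higher. Lens fibre genes without Tdrd7 summed to 11.04 to 17.1 CPM in the 4 controls and to 72.3 CPM in the highest IgG retina. In the other 3 IgG retinas the sum was 7.15 to 9.08 CPM, below every control, and their Cryaa was above every control. The sum cannot resolve lens RNA at their level of Cryaa. The highest IgG retina had its 72.3 CPM at 2083 TPM of Cryaa, and the other 3 had at most 69.1 TPM. The controls alone spread over 11.04 to 17.1 CPM. The sum does not hold for each fibre gene, since 1 of the 11 was at 0 in all 4 controls. The part of lens RNA in the result was not tested. Pigment epithelium genes summed to 239 to 505 CPM in controls and 869 to 1698 CPM with IgG, without overlap. The 3 ciliary body and iris genes went the other way, at 11.7 to 37.9 CPM in controls and 6.04 to 12.7 CPM with IgG, and overlapped. The part of either list in the result was not tested. The fitted log2 change of Cryaa, 13.28 (SE 3.56), depends on the prior count, since controls were almost at 0.

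The call of Cryaa at P17 was not firm. Over 15 alternative settings its adjusted p ran from 1.4e-09 to 0.16, and 4 of the 15 kept it under 0.05. It held with RLE scaling factors (1.9% of genes called higher) and without the 3 high libraries (adjusted p = 0.0385, with 1.45% of genes called higher). It was lost without the high IgG retina alone (log2 change 9.73, adjusted p = 0.16), and only 1 of the 8 fits that left out 1 retina kept it, that without IgG retina 1. It was also lost without a filter on low counts (0.056), with limma-trend on log2(TPM + 1) (0.092), with the replicate number as a block (0.075) and in a fit of only the compared groups (0.11).

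Each of the other members had a fitted change above 0 at P17 and none was called. Log2 changes were 10.13 for Crybb2 (adjusted p = 0.061), 9.46 for Crygs (0.072), 8.60 for Cryba1 (0.084), 6.61 for Cryba4 (0.059) and 6.47 for Cryba2 (0.14), all by edgeR. Crybb1 was at 4.96 (0.081) and Crybb3 at 3.86 (0.089). These 8 genes were measured in the same retinas, and their levels rest largely on the same IgG library. In CPM the 4 IgG values of 7 members, all but Cryab and Crybb1, lay above the 4 controls, which held for 6.82% of all genes. DESeq2 called 8 of the 9 higher, all but Cryab, where it called 4.44% of genes higher. Without IgG retina 1, edgeR called 4 members higher (Cryaa, Cryba4, Crybb2 and Crygs), where it called 2.23% of genes higher. The median log2 change of the 9 members was 6.61, beside −0.05 over all genes, and 3.95 without the 3 high libraries. Without them Crybb2 was at 6.34, Crygs at 5.46, Cryba1 at 4.84, Cryba4 at 3.95, Cryba2 at 3.27, Crybb1 at 1.51 and Crybb3 at 1.26.

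Cryab was measured precisely enough to set apart. At P17 it averaged 149 ± 110 CPM with IgG and 76.5 ± 22.2 CPM in controls (SD, n = 4 each), a log2 change of 0.97 (SE 0.55, adjusted p = 0.40 by edgeR). That change was 0.31 (SE 0.23, adjusted p = 0.57) without the 3 high libraries, and it turned to −0.85 (SE 0.38, adjusted p = 0.49) with the level of Cryaa as a covariate. In that covariate fit Cryba1 was called lower, at −3.98 (adjusted p = 0.025), where 0.0128% of genes were. Cryaa did not overlap between these groups at P17, so the covariate fit rests on extrapolation and cannot decide a direction.

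At P19 edgeR called 0 of 9 members in the same comparison, 0 had an unadjusted p under 0.05 and DESeq2 called 0, where 0.919% of all genes were called in either direction. The median log2 change of the 9 was 0.41, beside −0.05 over all genes. Cryaa averaged 19.99 ± 24.1 CPM with IgG and 15.1 ± 13.7 CPM in controls (SD, n = 4 each), a difference smaller than the spread in either group. Of the beta and gamma members, fitted log2 changes ran from 0.00 for Crygs to 1.00 for Crybb1, each with an SE above 1.

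Cryab was the exception at P19. It averaged 100.1 ± 14.7 CPM with IgG and 53.2 ± 3.26 CPM in controls (SD, n = 4 each), and alone among the 9 had all 4 IgG values above all controls, as did 6.64% of all genes. The log2 change was 0.91, or 1.88-fold, with an SE of 0.55 and adjusted p = 0.53. That SE comes from a spread shared by all 10 groups, and the 3 high P17 libraries, none of them in this comparison, are part of it. Without those libraries the change was again 0.91, the SE was 0.22 and the adjusted p = 0.034, in a fit that called 0.618% of genes higher. In a fit of the 8 compared libraries alone it was 0.89, with an SE of 0.13 and adjusted p = 0.0029, where 2.93% of genes were called higher. Over the 15 alternatives the adjusted p ran from 0.0029 to 0.78, and these 2 were the ones under 0.05. With the level of Cryaa as a covariate the change was 0.86 (adjusted p = 0.20). Hspb2, which overlaps Cryab, had a log2 change of 0.82 (SE 0.77, adjusted p = 0.75). The 7 Müller glia genes summed to 5543 to 6199 CPM with IgG at P19 and to 3427 to 3986 CPM in controls, without overlap. Their part in the result for Cryab was not tested.

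**Figure D4:**
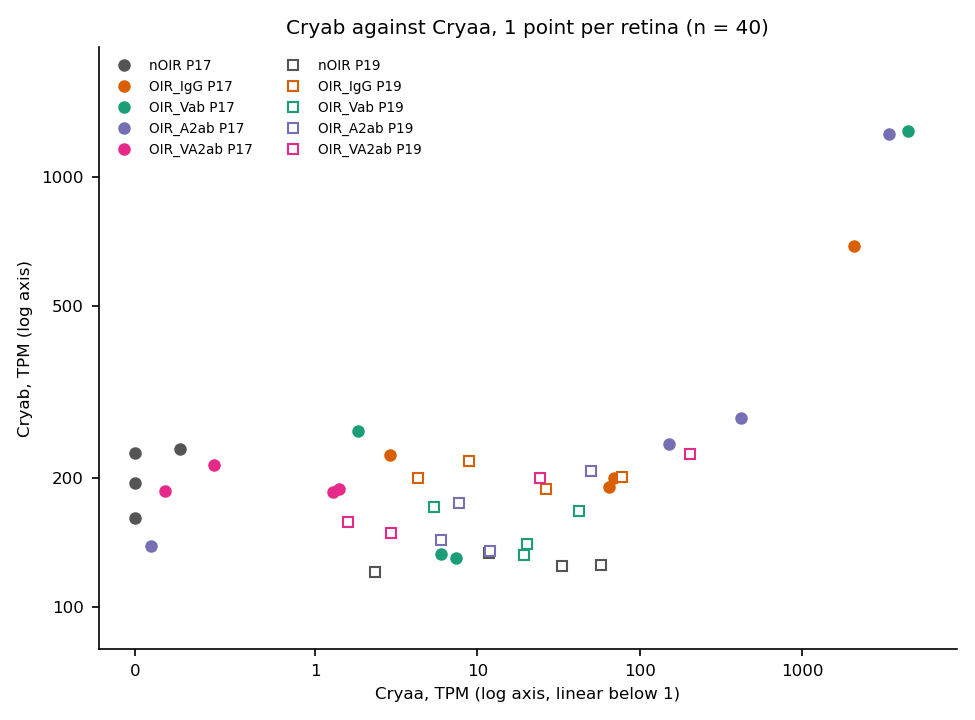
TPM of Cryab (vertical, log axis) against TPM of Cryaa (horizontal, linear near 0 and log above), 1 point per library, coloured by group, filled at P17 and open at P19. Cryab stays between 121 and 275 TPM in 37 libraries, and only the 3 libraries with Cryaa above 1000 TPM lie higher; the 4 P19 controls are at 121 to 134 TPM and the 4 P19 IgG retinas at 189 to 218 TPM.

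Neutralising VEGFA, ANG-2 or both was compared with IgG at each age. With anti-VEGFA at P17, 0 of 9 members were called by edgeR (0% of all genes), 0 had an unadjusted p under 0.05 and 0 were called by DESeq2. The fitted changes depended on which group's high library was counted. All 9 were above 0, with a median log2 change of 0.43, and all 9 were below 0, with a median of −2.81, without the 3 high libraries. For Cryaa the mean was 615 ± 1224 CPM with anti-VEGFA and 368 ± 674 CPM with IgG (SD, n = 4 each), so the spread exceeded the means. At P19 anti-VEGFA again gave 0 of 9 (0% of all genes), with 0 at an unadjusted p under 0.05 and 0 by DESeq2, and a median of −0.46. Cryab averaged 77.7 ± 15.3 CPM there and 100.1 ± 14.7 CPM with IgG (SD, n = 4 each), a log2 change of −0.37 (SE 0.54, adjusted p = 0.85).

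With the anti-ANG-2 antibody at P17, 0 of 9 members were called by edgeR (0% of all genes), 0 had an unadjusted p under 0.05, and DESeq2 called 0. The median log2 change was 0.63, and 1.58 without the 3 high libraries. At P19 the counts were again 0 by edgeR (0.0979% of all genes), 0 unadjusted and 0 by DESeq2, and the median was −0.21.

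The bispecific antibody group at P17 had the lowest median of Cryaa among the OIR groups. Cryaa averaged 0.533 ± 0.412 CPM, against 368 ± 674 CPM with IgG (SD, n = 4 each), or 35 counts against 24794. Scaled to library size the ratio of IgG to bispecific was 569 (exact 95% interval 409 to 817, counting error only), and 62.4 (44.8 to 89.9) from the other 3 IgG retinas. In CPM, Cryaa, Cryba1 and Crygs were lower in all 4 bispecific retinas than in any IgG retina, as were 1.71% of all genes. By edgeR 0 of 9 were called and 0% of all genes were, while 8 of 9 had an unadjusted p under 0.05. The share of all genes at that unadjusted threshold is not given here, and the 9 share their libraries, so the 8 are not separate evidence. The log2 change of Cryaa was −9.48 (SE 2.71, unadjusted p = 0.0015, adjusted p = 1). Without the 3 high libraries it was −5.91 (SE 1.76, adjusted p = 1), and 5 of 9 members had an unadjusted p under 0.05. DESeq2 called 4 lower (Cryaa, Cryba1, Crybb2 and Crygs), where it called 0.0436% of genes lower. The median of the 9 was −7.26, and −4.06 without the 3 high libraries. Cryab, at 88.4 ± 11.03 CPM against 149 ± 110 CPM, had a log2 change of −0.76 (SE 0.54), and −0.10 without those libraries.

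Lens fibre genes without Tdrd7 summed to 7.33 to 16.1 CPM in the 4 bispecific retinas at P17, beside 7.15 to 72.3 CPM with IgG, and these groups overlapped. Outside the highest IgG retina the sum cannot resolve lens RNA at these levels of Cryaa, and the part of lens RNA was not tested. At P19 the bispecific group gave 0 of 9 by edgeR (0.0468% of all genes), 0 at an unadjusted p under 0.05 and 0 by DESeq2, with a median log2 change of 0.57.

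**Figure D5:**
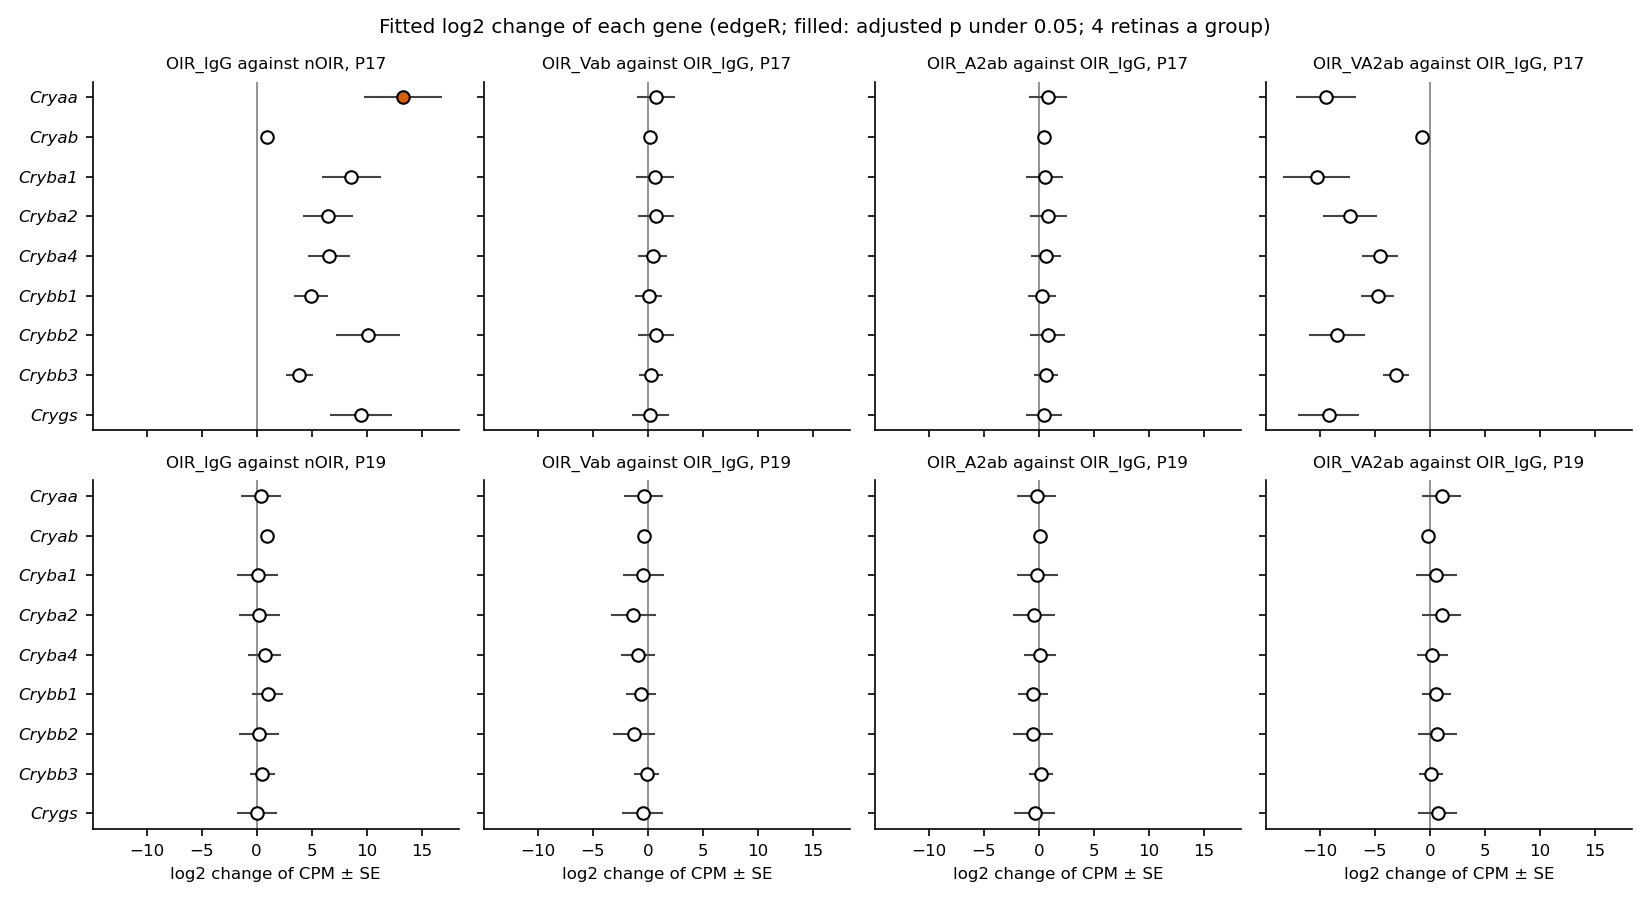
Log2 change with its SE for each of the 9 genes (edgeR) in the 8 comparisons, OIR with IgG against control and each antibody against IgG at P17 (top) and P19 (bottom); filled points have an adjusted p under 0.05. Cryaa in OIR at P17, at 13.28, is the only filled point.

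Between P17 and P19, the levels of 3 members separated the control retinas by age. Cryaa, Crybb2 and Crygs were higher in all 4 P19 controls than in all 4 P17 controls in CPM, as were 3.23% of all genes. Cryaa went from 2 counts to 1009, a scaled ratio of 491 (exact 95% interval 136 to 4059, counting error only). By edgeR 0 of 9 were called (0.0979% of all genes in either direction), 1 had an unadjusted p under 0.05, and the adjusted p of Cryaa was 0.70. DESeq2 called Cryaa and Crybb2 higher, where it called 1.88% of genes higher, and a fit of only these 8 libraries called Cryaa, with 0.253% of genes higher. Cryab went the other way, from 76.5 ± 22.2 to 53.2 ± 3.26 CPM (SD, n = 4 each), a log2 change of −0.52 (SE 0.55, adjusted p = 1). With the level of Cryaa as a covariate Cryab was called lower, at −1.71 (SE 0.35, adjusted p = 0.037), as were Crybb1 and 0.0298% of all genes. That fit too rests on extrapolation, since Cryaa did not overlap between the ages. Without the 3 high libraries, none of them a control, 0 were called and 6 of 9 had an unadjusted p under 0.05. The share of all genes at that threshold is not given, and the 9 share their libraries, so the 6 are not separate evidence. Retinal neuron genes summed to 14694.5 to 16998.8 CPM in P17 controls and to 23060.9 to 25010.9 CPM in P19 controls, without overlap. Pigment epithelium genes summed to 239 to 505 CPM and 406 to 1206 CPM, and of these 9 genes 7 had a fitted change above 0 and 4 an unadjusted p under 0.05. Lens fibre genes without Tdrd7 summed to 11.04 to 17.1 CPM at P17 and 10.5 to 15.6 CPM at P19, and overlapped. Cryaa was at no more than 57.3 TPM in these retinas. The sum cannot resolve lens RNA at that level, and the part of lens RNA was not tested. The part of the neuron and pigment epithelium genes in the result was not tested.

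In the 3 OIR groups that held a high library at P17, the fitted changes from P17 to P19 were below 0. The median log2 change of the 9 was −3.82 with IgG, −4.79 with anti-VEGFA and −4.79 with anti-ANG-2, and the values were −0.29, 1.28 and −2.35 without the 3 high libraries, so the direction in the anti-VEGFA group turned. By edgeR 0 of 9 were called in each, beside 0.00851%, 0% and 4.83% of all genes. At an unadjusted p under 0.05 there were 7, 9 and 8 (0, 0 and 3 without the 3 high libraries). The share of all genes at that threshold is not given, and the 9 share their libraries, so these are not separate evidence. DESeq2 called 0, 0 and 7. In the last, DESeq2 called 4.87% of genes lower. With the bispecific antibody the median was 4.48. Cryaa and Crybb1 were higher in all 4 P19 retinas there, as were 1.2% of all genes. By edgeR 0 of 9 were called (0.0298% of all genes), 3 had an unadjusted p under 0.05 (6 without the 3 high libraries), and DESeq2 called 1, Cryaa, with 0.162% of genes higher.

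Whether an effect differed between the ages was tested as an interaction. For OIR against control the log2 difference of Cryaa, P19 minus P17, was −12.87 (SE 4.12, adjusted p = 0.68), and 0 of 9 members were called by edgeR (0.00426% of all genes) with 7 at an unadjusted p under 0.05 and 2 by DESeq2 (Cryaa and Crybb2, with 0.135% of genes lower). For the bispecific antibody it was 10.53 (SE 3.20, adjusted p = 0.94), with 0 called (0% of all genes), 7 at an unadjusted p under 0.05 and 1 by DESeq2 (Cryaa, with 0.0313% of genes higher). For anti-VEGFA and anti-ANG-2 the counts were 0 by edgeR (0% of all genes), 0 unadjusted and 0 by DESeq2. Without the 3 high libraries the difference of Cryaa was −9.32 (SE 2.92) for OIR and 6.96 (SE 2.18) for the bispecific antibody, each with 5 of 9 members at an unadjusted p under 0.05. The median of the 9 went from −6.23 to −3.23 for OIR, from 8.30 to 5.09 for the bispecific antibody and from −0.83 to −1.93 for anti-ANG-2. For anti-VEGFA it turned from −1.08, with 9 of 9 below 0, to 1.58, with 8 of 9 above 0. Numbers of members at an unadjusted p under 0.05 are not separate evidence, since the 9 share their libraries. The share of all genes at that threshold is not given.

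Related genes were read from lists chosen with earlier results of these data known. Of all genes tested, edgeR called 2.11% higher in OIR at P17 and 0.919% in either direction in OIR at P19. For age in controls it called 0.0979% in either direction. The gamma crystallins Cryga to Crygf and Crygn, which are partly near-identical so that reads may be split among them, gave 0 of 7 called in OIR at P17 by edgeR and a median log2 change of 9.65, and all 7 had an unadjusted p under 0.05. These 7 share their libraries, and the share of all genes at that threshold is not given, so they are not separate evidence. Of 7 genes that carry a crystallin name outside these families, Crym alone was called. Crym, which binds thyroid hormone, rose in OIR 1.68-fold at P17 (adjusted p = 0.039) and 2.12-fold at P19 (adjusted p = 0.0038), and fell in controls from P17 to P19 to 0.454 of its level (adjusted p = 0.0078). Of 10 transcription factors of the lens, several of them also made in retina, 7 could be tested. Of these 0 were called at either age, with 1 and 0 at an unadjusted p under 0.05. In whole retina they do not report on lens alone.

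Stress and glial genes are given beside Cryab because it is a stress protein of glia. These lists too were chosen with earlier results known. The counts below stand beside 2.11% of all genes called higher in OIR at P17 and 0.919% called in either direction at P19. Of 14 heat shock genes, 1 was called in OIR at P17, Hsp90aa1 (a stress-induced chaperone, 1.63-fold, adjusted p = 0.0057), and 0 at P19, where 2 had an unadjusted p under 0.05. The closest small heat shock relatives did not pass: at P19 the log2 change was −0.19 for Hspb1, 0.01 for Hspb6 and 0.15 for Hspb8. Of 14 reactive glia genes, 9 rose in OIR at P17, among them Gfap (the filament of reactive glia, 5.35-fold), S100a6 (4.57-fold), Fgf2 (4.11-fold) and Serpina3n (11.1-fold). At P19 there were 3 (Edn2, Cebpd and S100a6), at a time when Gfap was 1.99-fold (adjusted p = 0.17). Of 9 pigment epithelium genes, Rpe65, Rgr and Ttr rose in OIR at P17 and 0 were called at P19 (0 unadjusted). Of the 12 lens fibre genes 0 were called at P17, with 4 at an unadjusted p under 0.05, and Dnase2b fell at P19. Of 7 Müller glia genes 0 were called at P17, with 3 at an unadjusted p under 0.05, and Apoe, the lipid carrier, rose 2.03-fold at P19 (adjusted p = 0.0087).

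Genes with the most similar pattern were ranked by Spearman's rho over the 40 libraries, which share depth and dissection, so the values are descriptions. Closest to the mean log2 CPM of the 9 members were Crygb (0.975), Crygc (0.927), Crygd (0.879), Cryge (0.859) and Crygf (0.827). Then came Crygn (0.702), Lim2 (0.643) and Cryga (0.573). Cryab had a different neighbourhood. The 5 genes closest to it were Plaat3 (0.831), Cox4i2 (0.814), Myl12a (0.779), Rnaset2a (0.769) and Laptm4a (0.765), none of them a crystallin.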

How the data were processed

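RNA of 40 mouse retinas was sequenced from SMART-Seq mRNA libraries made with a Nextera XT kit, per the labels' protocols. The authors deposited expected counts and TPM per gene symbol, made with STAR 2.7.10a and RSEM 1.3.3 on GRCm38.p4, per the submitters' processing notes, with a gene annotation not given in the sources used here. Expected counts split reads shared by similar genes, and 15.7% of the nonzero values were not whole, so they were rounded. Genes were tested with edgeR 4.0.16 in R 4.3.3 (filterByExpr by group, TMM, robust quasi-likelihood fit over all 40 libraries, 30 residual degrees of freedom), adjusted by Benjamini-Hochberg over all genes within each of 17 comparisons and called under 0.05. The fit was tested on simulated data. Alternatives used DESeq2 1.42.0, limma 3.58.1 on the deposited TPM with a pseudocount of 1, other scaling, no filter, a replicate block, fewer libraries and Cryaa as a covariate. Libraries with Cryaa above 1000 TPM were left out in an alternative chosen after seeing the data. Members, lists and tests were chosen with earlier results of these data known. All 9 members are named, with up to 4 called genes of each other list and the genes most correlated with the members or with Cryab. Intervals on counts are exact at 95% and cover counting error only. Numbers of genes with an unadjusted p under 0.05 are given without the share of all genes at that threshold, and genes of a list share their libraries. In RNA of a whole retina, fewer cells of a type and less RNA per cell cannot be told apart.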

Additional observations from a re-analysis of the deposited data

Results flagged for a closer look

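In 43 of 90 sets of 4 retinas (9 genes in 10 groups, TPM), 1 retina stood far from the other 3, measured as its gap to the nearest retina divided by the range of the group. Chance flags about 1 in 20 groups where values are normally distributed. That rate does not apply to these TPM values, which for Cryaa with IgG at P17 ran from 2.88 to 2083. In a set with 3 retinas at 0, as for Cryaa in P17 controls, the measure is 1 by construction. The 9 genes also share their libraries, so the flags are not independent. Retina 4 of the IgG group at P17 was the highest for all 9 genes, with a gap of 0.968 of the range for Cryaa, 0.93 for Cryab, 0.969 for Cryba1, 0.964 for Cryba2, 0.958 for Cryba4, 0.97 for Crybb1, 0.968 for Crybb2, 0.968 for Crybb3 and 0.972 for Crygs. Retina 4 of the anti-VEGFA group at P17 was likewise highest for all 9, at 0.999 for Cryaa, 0.89 for Cryab, 0.998 for Cryba1, 0.999 for Cryba2, 0.993 for Cryba4, 0.99 for Crybb1, 0.999 for Crybb2, 0.989 for Crybb3 and 0.998 for Crygs. Retina 2 of the anti-ANG-2 group at P17 stood apart for 8 genes, at 0.878 for Cryaa, 0.878 for Cryab, 0.875 for Cryba1, 0.875 for Cryba2, 0.864 for Cryba4, 0.886 for Crybb2, 0.868 for Crybb3 and 0.862 for Crygs.

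Among groups with lower levels, retina 1 of the bispecific group at P19 was highest for 7 genes, at 0.889 for Cryaa, 0.913 for Cryba1, 0.859 for Cryba2, 0.841 for Cryba4, 0.896 for Crybb2, 0.883 for Crybb3 and 0.91 for Crygs. Retina 3 of the IgG group at P19 gave 0.859 for Cryba1, 0.872 for Cryba2 and 0.861 for Crybb1, and retina 2 of the anti-ANG-2 group at P19 gave 0.864 for Cryaa and 0.939 for Crybb2. In the bispecific group at P17, retina 4 gave 0.898 for Cryab and 1 for Cryba2, and retina 3 gave 1 for Cryba1. Retina 4 of the P17 controls gave 1 for Cryaa, the only control with a count, and 0.945 for Crybb1.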

How the results depend on the processing

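For OIR at P17 edgeR called 1 of 9 members (2.11% of all genes higher) and DESeq2 called 8 (4.44% higher). Fits without a count filter, with limma-trend, with a replicate block or with only the compared groups called 0. Leaving out 1 retina in turn gave 0 to 4. The 4 (Cryaa, Cryba4, Crybb2 and Crygs) were called without IgG retina 1, where 2.23% of genes were called higher. For OIR at P19 the count went from 0 to 1, Cryab, both with only the compared groups and without the 3 libraries above 1000 TPM of Cryaa. DESeq2 also moved the count from 0 to 4 for the bispecific antibody at P17, 2 for age in controls, 7 for age with anti-ANG-2, 1 for age with the bispecific antibody, 2 for the difference of the OIR effect between ages and 1 for that of the bispecific effect. Only the compared groups gave 1 (Cryaa) for age in controls. In each case the cause was not tested. With Cryaa as a covariate, Cryba1 in OIR at P17 went from 8.60 to −3.98 and was called lower (adjusted p = 0.025). Cryab went from 0.97 to −0.85 there (adjusted p = 0.49). For age in controls, Cryab (−1.71, adjusted p = 0.037) and Crybb1 were called lower. Cryaa itself (1.19 in OIR at P17, adjusted p = 0.59) cannot be tested in that fit, since its own level is the covariate. In both comparisons Cryaa did not overlap between the groups, so these values rest on extrapolation and cannot decide a direction. Without the 3 libraries, 95 of 117 single-gene log2 changes kept both their direction and their call, 21 changed direction and 1 gained a call. Those that kept both could still shift in size. In OIR at P17 Cryaa went from 13.28 to 9.73, and the median of the 9 from 6.61 to 3.95. DESeq2 gave no adjusted p for 26 of 153 values, and fits of only the compared groups gave 104 of 117, since fewer libraries pass fewer genes. Retinas with the same number had a median correlation of 0.0106, against −0.00274 for other numbers. Of 180 such pairs 18 were above 0.1, and the highest was 0.356. Of the 40 libraries 19 were closest to their own number, with 4 numbers to choose from. Most pairs were thus near 0, but some shared deviation by number is not excluded. The replicate block lost the call of Cryaa at P17 (adjusted p = 0.075) and changed no other count. Depth limits Cryaa in the 6 libraries with 3 or fewer counts.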

Other observations

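The gamma crystallins other than Crygs did not keep 1 ratio to Cryaa in the 3 libraries with the most crystallin. Counts of Cryga to Crygf and Crygn summed to 0.756 of the Cryaa count in retina 4 of the IgG group at P17, 0.319 in retina 4 of the anti-VEGFA group and 0.540 in retina 2 of the anti-ANG-2 group. Over the 27 libraries with at least 30 counts of Cryaa the ratio ran from 0.225 to 1.11, with a median of 0.535.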
